A study of Saccharomyces cerevisiae with 9 samples.

Results

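The J-domain cochaperones of Hsp70 were examined in haploid BY4742 cells of Saccharomyces cerevisiae after heating to 50 °C at a slow or a fast rate. The genes were taken by systematic name and number 10 of the 7126 features in the deposited tables: SIS1 (YNL007C), YDJ1 (YNL064C), APJ1 (YNL077W), XDJ1 (YLR090W), CAJ1 (YER048C), DJP1 (YIR004W), ZUO1 (YGR285C), JJJ1 (YNL227C), JJJ3 (YJR097W) and SWA2 (YDR320C). In the R64 annotation each is 1 coding segment without an intron, and 4 of the 10 lie on chromosome XIV. RNA was sequenced from 9 libraries, 3 in each of 3 groups. Heat ramp cells were warmed by 0.5 °C per min and heat shock cells by 50 °C per min, each starting at 25 °C and ending at 50 °C. Both were then held at 50 °C for 30 min and returned rapidly to 25 °C, whereas control cells were collected untreated. All groups were wild type apart from the markers of the strain (MATα, his3Δ1, leu2Δ0, lys2Δ0, ura3Δ0) and had been grown for 48 h at 25 °C in YPD, to the stationary phase. Each of 3 cultures gave 1 sample to every group.

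J-domain proteins are the partners that direct Hsp70. The J-domain carries a histidine-proline-aspartate motif and stimulates ATP hydrolysis by Hsp70, which closes the chaperone on its substrate, while the rest of the protein binds substrates or fixes the pair at one place in the cell. Ydj1 and Sis1 are the general J-domain proteins of the yeast cytosol and work with the Ssa Hsp70s in folding, protein transport and, with Hsp104, the dissolution of aggregates. Sis1 also takes part in holding the heat shock factor Hsf1 inactive in unstressed cells. The other members serve narrower tasks at the ribosome, at clathrin coats, at organelles or in the modification of a translation factor.

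The values are normalized counts, that is reads on a gene over the size factor of its library, in the form deposited by the authors. The libraries held between 22579312 and 27233289 counted reads, and a member had between 340 and 94508 reads in a library. LYS2, LEU2 and URA3, which are deleted in this strain, had 0 reads in every library, and a count of 0 allows up to 3 reads, a limit for counting error only. The size factors were lower after the heat ramp (0.610 to 0.714) than after the heat shock (1.11 to 1.13) or in the control (1.40 to 1.46). Scaling each library to its total count instead moved the median log2 fold change of all features by −0.92 for heat ramp against control, −0.17 for heat shock against control and −0.74 for heat ramp against heat shock. Changes below are therefore relative to the typical feature, not amounts per cell, and fewer living cells and less RNA per cell cannot be told apart in such bulk samples. Members leaned to one side in a library of each group. Replicate 2 was the highest heat ramp library for 9 of the 10 genes, replicate 2 the lowest heat shock library for 7 and replicate 1 the highest control library for 8. The share of all features with the same extreme library was not computed, so this lean cannot be called particular to the members. Over all features, the root mean square log2 deviation from the group mean was 0.183 to 0.303 in the heat ramp, 0.206 to 0.248 in the heat shock and 0.169 to 0.210 in the control libraries.

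After the heat ramp, 3 of the 10 genes were higher than in the control (SIS1, YDJ1 and APJ1), 5 were lower (DJP1, JJJ1, ZUO1, SWA2 and XDJ1) and 2 did not pass the test (CAJ1 and JJJ3). Calls are from limma with a Benjamini-Hochberg adjusted p under 0.05 over 6847 features, among which 39.0% were called higher and 39.5% lower (78.5% in all), so that most features passed. Total count scaling turned 2670 higher and 2705 lower features into 1326 and 4384. When a size of at least 1 on the log2 scale was also required, the same 3 were higher and 2 were lower (DJP1 and JJJ1), where 25.7% of all features were called higher and 19.7% lower (45.3% in all). The median log2 fold change over the 10 genes was −0.38, against −0.01 over all features. All 8 calls held when each of the 9 libraries was left out in turn, and under total count scaling.

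SIS1 (chrXIV:618507-619565, minus strand), which encodes an essential class B J-domain protein, had the highest level of the 10 genes. It had 125267, 132446 and 120228 normalized counts in the heat ramp libraries, 31379, 15151 and 23424 in the heat shock libraries and 21832, 17200 and 18017 in the control libraries. Every heat ramp library lay above every other library, while the heat shock and control libraries overlapped. Set against the control, the heat ramp gave a log2 fold change of 2.73 with a standard error of 0.227 (adjusted p = 7.74e-08), a 6.66-fold difference, and under total count scaling it was 1.82.

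YDJ1 (chrXIV:505868-507097, minus strand), which encodes the abundant farnesylated class A protein, had 47447, 64129 and 56448 normalized counts after the heat ramp, 30636, 13908 and 25353 in heat-shocked cells and 15373, 14449 and 15643 in the control. The heat ramp libraries were again the highest, and heat shock replicate 2 lay below all control libraries. The heat ramp exceeded the control by 1.88 on the log2 scale (standard error 0.238, adjusted p = 5.89e-06), or 3.67-fold, and 0.96 under total count scaling.

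APJ1 (chrXIV:481391-482977, plus strand) encodes a class A protein known in the nucleus for work on aggregated and SUMO-modified proteins. Its normalized counts were 33906, 32058 and 32281 after the heat ramp, 6559, 2586 and 4866 in heat-shocked cells and 3455, 3322 and 2521 in the control. The heat ramp libraries lay within a narrow band far above the rest. Its log2 fold change between heat ramp and control was 3.41 (standard error 0.251, adjusted p = 2.43e-08), which is 10.7-fold and the largest of the 10 genes.

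**Figure D1:**
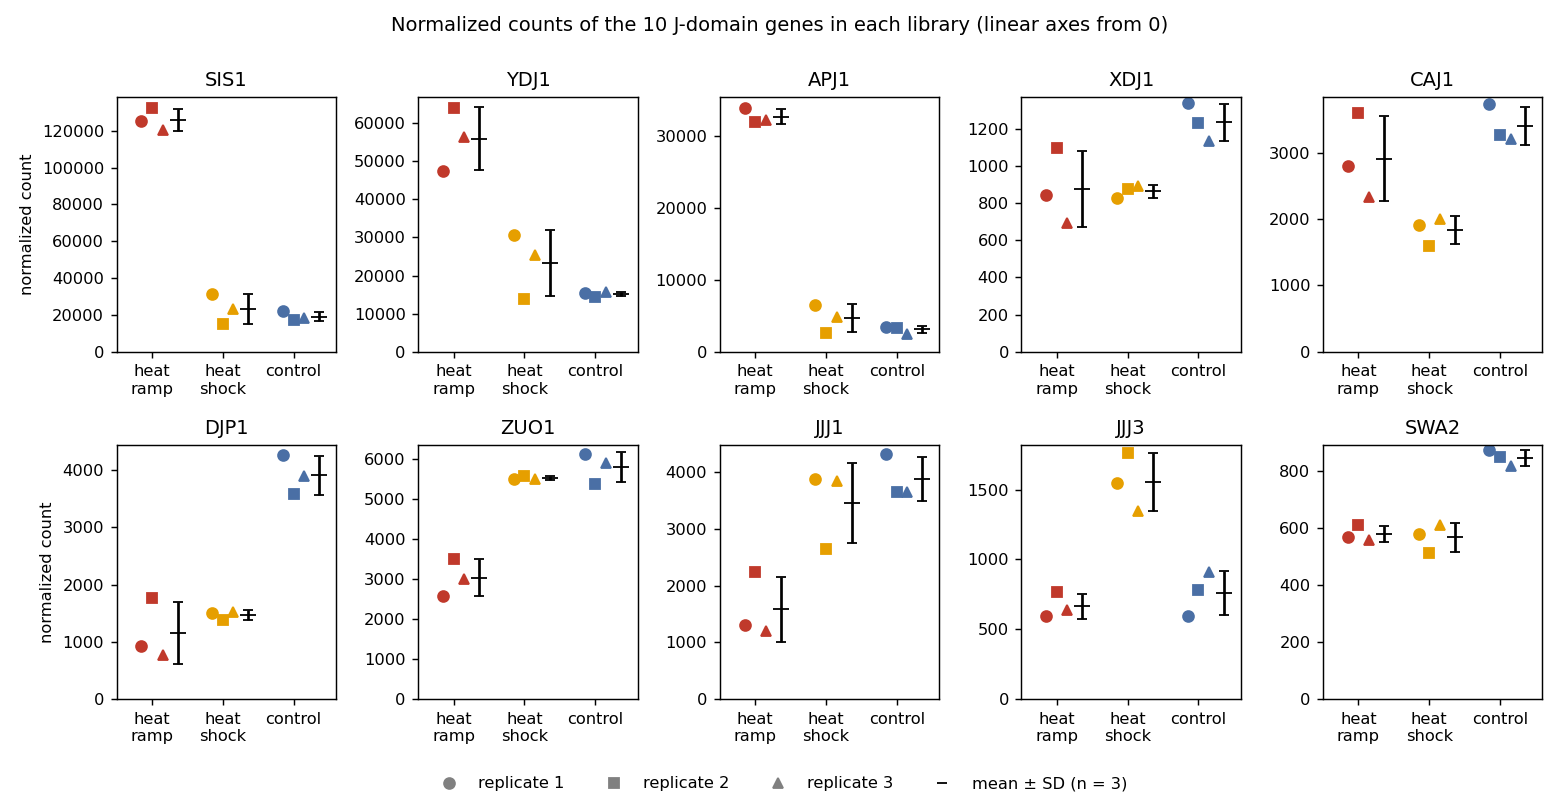
Normalized counts of the 10 genes on linear axes from 0, with a panel per gene, groups along the x axis, a symbol per replicate and the mean ± SD (n = 3) in black. SIS1, YDJ1 and APJ1 are highest in the heat ramp libraries, JJJ3 in the heat shock libraries, and DJP1, XDJ1 and SWA2 in the control libraries, without overlap.

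The letters of binding motifs for the heat regulators were searched upstream of all 10 start codons in the R64 assembly (SacCer3), on both strands. Hsf1 binds inverted repeats of a 5-base unit, written here as GAANNTTC or TTCNNGAA for 2 units and, for 3 units, as the same letters with NNGAA or NNTTC added in alternation, so that each 3-unit match contains 2-unit matches. Msn2 and Msn4 bind the stress response element, AGGGG or CCCCT. Within 300 bases, 3 of the 10 members had a 2-unit match (APJ1, JJJ3 and SWA2), against 22.4% of 5987 protein-coding genes, none had a 3-unit match (0.869% of the genes) and 1 (DJP1) had a stress response element (22.2%). A window of 600 bases, chosen after those results were seen, added 2-unit matches for SIS1 and YDJ1. In it 5 of the 10 members had a 2-unit match, against 41.2% of 5985 genes, 4 had a stress response element (YDJ1, APJ1, XDJ1 and DJP1), against 39.7%, and SIS1 alone among the members had 3-unit matches, against 1.70% of the genes. A match is a likeness of letters and not a binding site, and its part in the changes was not tested. The stretches are shown 5′ to 3′ on the strand of the gene, from the annotation's assembly, with the heat shock element letters in capitals, first for the genes that were higher after the heat ramp and then for the other members that held such letters within 300 bases.
SIS1 (chrXIV:619866-620165, minus strand, 600 to 301 bases before the start codon): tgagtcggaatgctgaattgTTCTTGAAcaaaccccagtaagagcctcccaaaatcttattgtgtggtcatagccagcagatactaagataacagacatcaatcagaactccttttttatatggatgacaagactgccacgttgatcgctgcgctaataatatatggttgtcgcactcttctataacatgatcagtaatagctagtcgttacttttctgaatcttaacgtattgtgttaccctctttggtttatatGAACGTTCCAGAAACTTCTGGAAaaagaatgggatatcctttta
YDJ1 (chrXIV:507338-507517, minus strand, 420 to 241 bases before the start codon): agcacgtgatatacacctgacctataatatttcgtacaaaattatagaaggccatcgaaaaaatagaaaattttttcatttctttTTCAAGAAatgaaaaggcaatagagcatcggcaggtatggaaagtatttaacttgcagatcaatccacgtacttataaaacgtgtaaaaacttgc
APJ1 (chrXIV:481091-481270, plus strand, 300 to 121 bases before the start codon): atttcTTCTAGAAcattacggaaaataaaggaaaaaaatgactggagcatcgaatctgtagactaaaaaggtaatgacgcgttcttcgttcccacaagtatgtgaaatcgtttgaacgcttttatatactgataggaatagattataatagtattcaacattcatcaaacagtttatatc
JJJ3 (chrX:612153-612252, plus strand, 260 to 161 bases before the start codon): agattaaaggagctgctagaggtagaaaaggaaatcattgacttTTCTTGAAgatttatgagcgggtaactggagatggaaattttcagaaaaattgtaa
SWA2 (chrIV:1108122-1108221, minus strand, 120 to 21 bases before the start codon): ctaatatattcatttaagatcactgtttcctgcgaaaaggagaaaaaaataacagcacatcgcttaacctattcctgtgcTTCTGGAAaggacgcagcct
In SIS1 the capitals run on as GAACGTTCCAGAAACTTCTGGAA, which is 5 alternating units in 23 bases, lying 344 to 322 bases before its start codon. The other capitals of SIS1, 580 to 573 bases before the start codon, lie inside the neighbouring gene. Windows of 600 bases were not ended at neighbouring genes and reached into them for SIS1, APJ1, JJJ1, JJJ3, SWA2 and DJP1. YDJ1 and APJ1 held 1 match each in these stretches. JJJ3, which was not called after the heat ramp, and SWA2, which was lower, also held such letters.

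**Figure D2:**
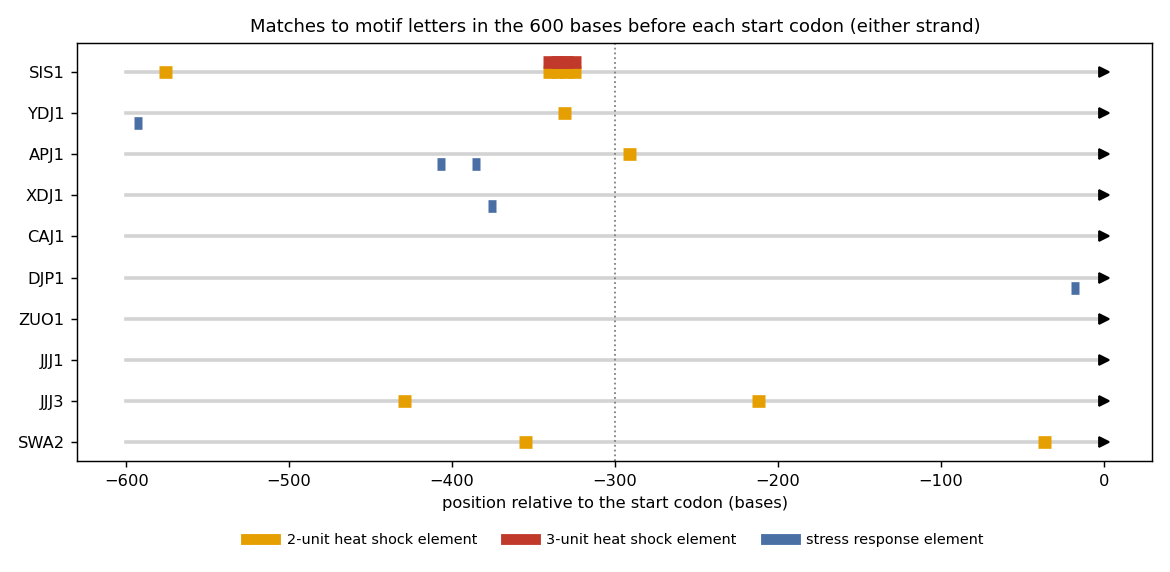
Positions of motif matches in the 600 bases before the start codon (x axis, bases, start codon at 0) of each of the 10 genes. Coloured blocks are matches on either strand and the dotted line marks 300 bases. The overlapping 3-unit matches occur in SIS1 only, and CAJ1, ZUO1 and JJJ1 hold no match.

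That run lies in the 501 bases between SIS1 and LST8 (YNL006W), a gene on the opposite strand that encodes a subunit of the TOR complexes, and it was named after its values had been seen. LST8 had 33962, 32135 and 32880 normalized counts after the heat ramp, 7391, 6008 and 5675 in heat-shocked cells and 8324, 8495 and 8469 in the control. Its heat ramp libraries were above all others, as for SIS1, at 1.97 on the log2 scale against control (limma, adjusted p = 9.37e-09). After the heat shock it was slightly lower (−0.42, adjusted p = 0.0150), a call that was lost without heat shock replicate 3 (−0.34, adjusted p = 0.0659).

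Among the genes that were lower after the heat ramp, DJP1 had the largest log2 fold change. Djp1 is a cytosolic protein that helps import into peroxisomes. The gene (chrIX:363221-364519, plus strand) had 935, 1769 and 764 normalized counts in the heat ramp libraries, 1510, 1375 and 1527 in the heat shock libraries and 4260, 3577 and 3895 in the control libraries, which lay above all heated libraries. Against control the heat ramp value was −1.85 on the log2 scale (standard error 0.226, adjusted p = 3.96e-06).

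JJJ1 (chrXIV:220659-222431, minus strand) encodes a cytosolic protein that acts late in the maturation of the large ribosomal subunit. It had 1314, 2246 and 1193 normalized counts after the heat ramp, 3888, 2640 and 3853 in heat-shocked cells and 4321, 3651 and 3649 in the control. Only the heat ramp libraries were set apart from the control, at −1.34 on the log2 scale (standard error 0.213, adjusted p = 4.90e-05).

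ZUO1 (chrVII:1061852-1063153, minus strand) encodes zuotin, the J-domain subunit of the ribosome-associated complex, which recruits the Ssb Hsp70s to nascent chains. It had 2585, 3502 and 3013 normalized counts after the heat ramp, 5493, 5582 and 5511 in heat-shocked cells and 6123, 5390 and 5903 in the control. The heat ramp libraries were the lowest, and the heat shock libraries lay inside the range of the control. Between heat ramp and control its log2 fold change was −0.95 (standard error 0.127, adjusted p = 1.02e-05).

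SWA2 (chrIV:1106095-1108101, minus strand) encodes the yeast auxilin, which uncoats clathrin vesicles, and it was lower than in the control after both treatments. It had 566, 611 and 557 normalized counts after the heat ramp, 578, 510 and 610 in heat-shocked cells and 871, 847 and 815 in the control. The heat ramp differed from the control by −0.55 on the log2 scale (standard error 0.123, adjusted p = 0.000964).

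XDJ1 (chrXII:320701-322080, plus strand), whose class A product has been linked to the import receptors of the mitochondrial outer membrane, had 844, 1097 and 691 normalized counts after the heat ramp, 826, 874 and 894 in heat-shocked cells and 1338, 1231 and 1137 in the control. Both heated groups lay below the control. After the heat ramp the log2 fold change was −0.52 (standard error 0.154, adjusted p = 0.00718).

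CAJ1 and JJJ3 did not pass the test after the heat ramp. CAJ1 (chrV:246982-248157, minus strand), which encodes a less studied J-domain protein, had 2808, 3603 and 2340 normalized counts after the heat ramp, 1906, 1603 and 2000 in heat-shocked cells and 3738, 3279 and 3210 in the control, and heat ramp replicate 2 lay inside the range of the control. Its log2 fold change was −0.24 (95% interval −0.58 to 0.09, adjusted p = 0.160), or −0.41 (adjusted p = 0.0116) without heat ramp replicate 2. JJJ3 (chrX:612413-612931, plus strand), also named DPH4, serves the synthesis of diphthamide on elongation factor 2. It had 591, 764 and 639 normalized counts after the heat ramp, 1550, 1762 and 1344 in heat-shocked cells and 596, 778 and 910 in the control, and its heat ramp libraries, which overlapped with the control, were at −0.18 on the log2 scale (95% interval −0.54 to 0.18, adjusted p = 0.327). Under total count scaling both were called lower after the heat ramp (CAJ1 −1.16, JJJ3 −1.10).

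After the heat shock, 1 of the 10 genes was higher than in the control (JJJ3) and 4 were lower (DJP1, CAJ1, SWA2 and XDJ1), where 29.9% of all features were called higher and 27.7% lower (57.6% in all). Under total count scaling 1526 features were higher and 2402 lower, in place of 2050 and 1895. Where a size of at least 1 on the log2 scale was required, JJJ3 was higher and DJP1 lower, against 12.2% and 5.74% of all features (17.9% in all). The median over the 10 genes was −0.12, against 0.04 over all features. JJJ3 was at 1.04 on the log2 scale (standard error 0.167, adjusted p = 0.000166), a 2.06-fold difference, and its heat shock libraries lay above every other library. Its value ranged from 0.87 to 1.18 when each library was left out. The call held throughout, but the size condition was not always met. DJP1 was lower by the largest factor (−1.41, standard error 0.226, adjusted p = 0.000168), followed by CAJ1 (−0.90, adjusted p = 0.000281), SWA2 (−0.58, adjusted p = 0.00128) and XDJ1 (−0.51, adjusted p = 0.0117). The control libraries of these 4 genes did not overlap with the heat shock libraries. The call for XDJ1 was lost without control replicate 1 (−0.45, adjusted p = 0.0503).

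The 3 genes that were higher after the heat ramp did not pass the limma test after the heat shock. That outcome depended on heat shock replicate 2 and, for YDJ1 and APJ1, also on the test used. Over all libraries, heat shock against control gave log2 fold changes of 0.55 for YDJ1 (95% interval 0.03 to 1.06, adjusted p = 0.0641), 0.50 for APJ1 (−0.04 to 1.04, adjusted p = 0.10) and 0.24 for SIS1 (−0.25 to 0.73, adjusted p = 0.382). Without heat shock replicate 2 they were 0.88 (adjusted p = 0.000981), 0.88 (adjusted p = 0.00107) and 0.52 (adjusted p = 0.0278), so that 4 members instead of 1 were called higher. In that fit 3531 features were called in either direction, against 3945 over all libraries. The share of features called higher in it was not computed, so the 4 calls cannot be called particular to the members. Without heat shock replicate 1 the value for SIS1 was −0.01. Replicate 2 was also the lowest heat shock library for 6 of 11 genes of the Hsp70 system, a count whose share over all features was not computed. The part of the state of replicate 2 in these results was not tested. SSA1 had 85980, 24622 and 58069 normalized counts in heat shock replicates 1, 2 and 3, against 36297, 28907 and 28457 in the control. MDJ1, the J-domain gene of the mitochondrial matrix, had 9345, 2607 and 7371, against 5038, 5215 and 4720. Other genes of these kinds were highest in replicate 2. SSB1, an Hsp70 gene, had 30958, 38790 and 32494, and PAM18, another J-domain gene, had 942, 1160 and 880. The count tests on recovered reads, over all 9 libraries, also called YDJ1 higher (edgeR 0.60, adjusted p = 0.0414, and DESeq2 0.63, adjusted p = 0.0107), and DESeq2 called APJ1 (0.60, adjusted p = 0.0279).

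**Figure D3:**
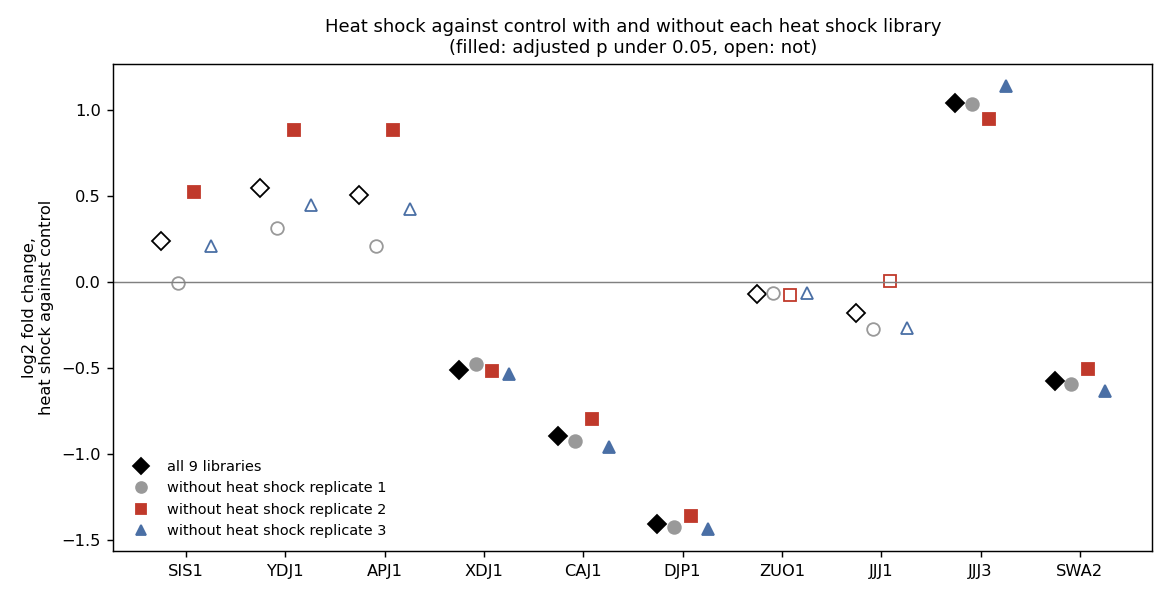
Log2 fold change of heat shock against control (y axis) for each gene, over all 9 libraries (diamonds) and without each heat shock library. Filled symbols have a limma adjusted p under 0.05. SIS1, YDJ1 and APJ1 are called only without replicate 2, whereas JJJ3, DJP1, CAJ1, SWA2 and XDJ1 are called in every fit drawn.

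JJJ1 and ZUO1 were not called after the heat shock. Their log2 fold changes were −0.18 (95% interval −0.64 to 0.28, adjusted p = 0.486) and −0.07 (−0.34 to 0.20, adjusted p = 0.663), which leaves room for a moderate change of JJJ1 in either direction and a smaller one of ZUO1.

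Heat ramp and heat shock were then compared directly. Both groups spent 30 min at 50 °C, but the slower warming also kept heat ramp cells longer above 25 °C, so that the rate of heating and the time at raised temperature cannot be told apart. After the heat ramp 4 of the 10 genes were higher than after the heat shock (APJ1, SIS1, YDJ1 and CAJ1) and 3 were lower (JJJ3, JJJ1 and ZUO1), against 35.9% and 36.1% of all features (72.0% in all). Total count scaling gave 1184 features higher and 4096 lower, in place of 2459 and 2470. Where a size of at least 1 on the log2 scale was required, APJ1, SIS1 and YDJ1 were higher and JJJ3 and JJJ1 lower, against 21.5% and 19.1% of all features (40.6% in all). The log2 fold changes were 2.91 for APJ1 (standard error 0.251, adjusted p = 1.24e-07), 2.49 for SIS1 (standard error 0.227, adjusted p = 2.07e-07) and 1.33 for YDJ1 (standard error 0.238, adjusted p = 0.000172). CAJ1 was higher by 0.65 (adjusted p = 0.00167), but under total count scaling its value was −0.09 and not called. JJJ3 was at −1.22 (adjusted p = 1.31e-05), JJJ1 at −1.16 (adjusted p = 0.000206) and ZUO1 at −0.88 (adjusted p = 2.35e-05).

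SWA2, XDJ1 and DJP1, which were lower than the control after both treatments, did not pass the test between them. The log2 fold changes of heat ramp against heat shock were 0.03 for SWA2 (95% interval −0.23 to 0.30), −0.0036 for XDJ1 (−0.33 to 0.33) and −0.44 for DJP1 (−0.93 to 0.04, adjusted p = 0.0935). These intervals exclude a difference of 1 log2 unit, but all 3 were called lower after the heat ramp under total count scaling (−0.71, −0.75 and −1.19), and DJP1 also without heat ramp replicate 2 (−0.80, adjusted p = 6.37e-05). The comparisons with the control share its 3 libraries.

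**Figure D4:**
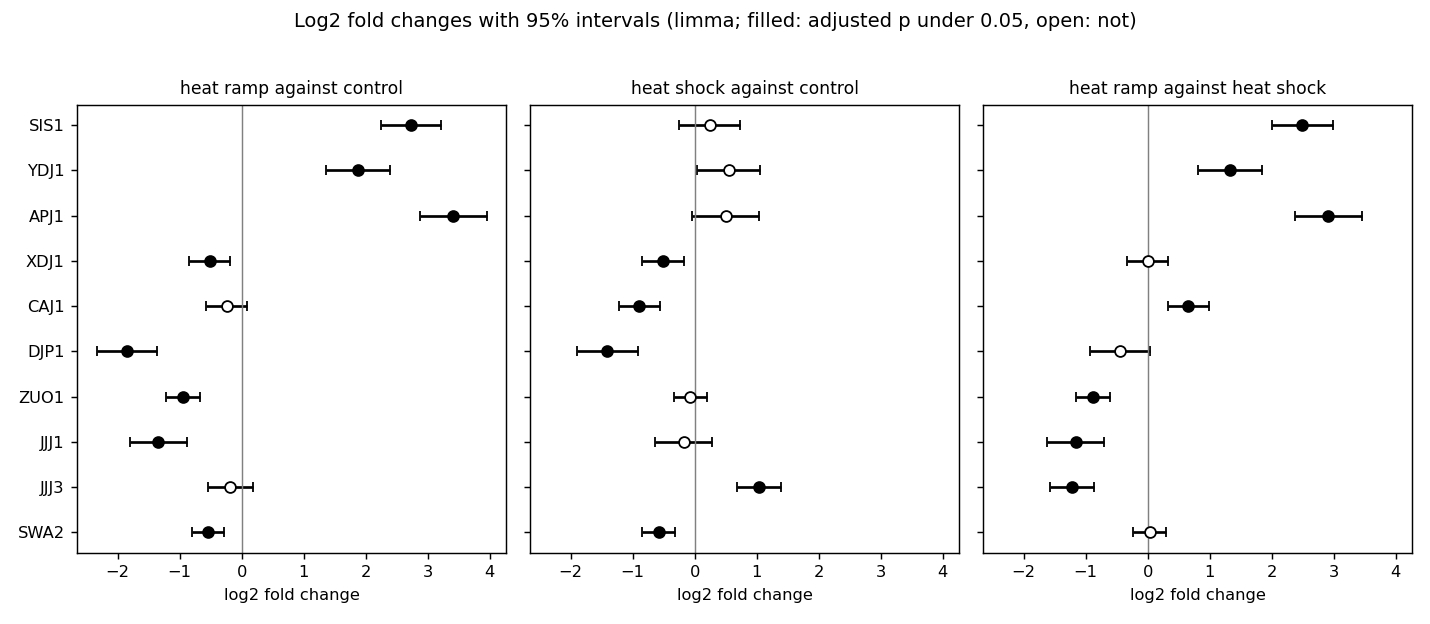
Log2 fold changes (x axis) of the 10 genes in the 3 comparisons, with 95% intervals from limma. Filled circles have an adjusted p under 0.05 and open circles do not. SIS1, YDJ1 and APJ1 lie far to the right in both comparisons that involve the heat ramp.

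By their means per kb of gene, SIS1 and YDJ1 were the highest of the 10 genes in every group and SWA2 and XDJ1 the lowest. The heat ramp libraries of XDJ1 (501 to 795 per kb) overlapped with those of DJP1 (588 to 1362). SIS1 stood at 118961 ± 5798 normalized counts per kb after the heat ramp, 22019 ± 7662 after the heat shock and 17957 ± 2335 in the control (SD, n = 3), and YDJ1 at 45535 ± 6789, 18942 ± 6952 and 12321 ± 509. These genes did not overlap in the heat ramp or control libraries, but did in the heat shock libraries. APJ1 came next after the heat ramp, with 20635 ± 636 normalized counts per kb, above CAJ1 (2480 ± 543) without overlap. After the heat shock APJ1 stood at 2943 ± 1256, overlapping with JJJ3 (2991 ± 403) and JJJ1 (1952 ± 401), and in the control at 1953 ± 318, overlapping with JJJ1 (2185 ± 218) and JJJ3 (1467 ± 303). ZUO1 overlapped with CAJ1 after the heat ramp (2330 ± 352) and followed YDJ1 after the heat shock (4246 ± 36.3) and in the control (4459 ± 289). The highest and the lowest member were 413-fold apart after the heat ramp, 78.1-fold after the heat shock and 42.7-fold in the control.

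The 10 genes together took 0.632% ± 0.0655 of all counted reads after the heat ramp, 0.311% ± 0.0877 after the heat shock and 0.302% ± 0.0211 in the control (SD, n = 3). SIS1, YDJ1 and APJ1 together held 95.2% ± 0.746 of the reads of the 10 genes after the heat ramp, 75.8% ± 6.39 after the heat shock and 65.2% ± 0.383 in the control.

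Ratios of reads within a library do not depend on the scaling between libraries, and they were used to follow the balance of partners. How often ratios of other genes separate the groups was not computed, so a separation cannot be called particular to these pairs. SIS1 over YDJ1 was 2.64, 2.07 and 2.13 in the heat ramp libraries, 1.02, 1.09 and 0.924 in the heat shock libraries and 1.42, 1.19 and 1.15 in the control libraries. The groups did not overlap, with the heat ramp highest and the heat shock lowest. APJ1 over YDJ1 was 0.500 to 0.715 after the heat ramp, above 0.186 to 0.214 after the heat shock and 0.161 to 0.230 in the control, which overlapped. XDJ1 over YDJ1, a ratio of class A genes, was 0.0122 to 0.0178 after the heat ramp, 0.0269 to 0.0629 after the heat shock and 0.0727 to 0.0870 in the control.

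Against their Hsp70 partners the order was different. The Ssa Hsp70s are the client-binding chaperones that Sis1 and Ydj1 serve, and their genes were summed because SSA1 and SSA2 are near-identical and may share reads. SIS1 over the sum of SSA1 to SSA4 was 0.0566, 0.0596 and 0.0556 in the heat ramp libraries, 0.106, 0.149 and 0.113 in the heat shock libraries and 0.138, 0.140 and 0.139 in the control libraries. YDJ1 over the same sum was 0.0215 to 0.0288, 0.103 to 0.137 and 0.0970 to 0.120 in those groups. Both ratios were lowest after the heat ramp, without overlap, while heat shock and control overlapped. ZUO1 over SSZ1, the other subunit of the ribosome-associated complex, was 1.24, 1.41 and 1.41 in the heat ramp libraries, 0.552, 0.523 and 0.559 in the heat shock libraries and 0.941, 0.922 and 0.901 in the control libraries, so that each group kept to a level of its own.

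**Figure D5:**
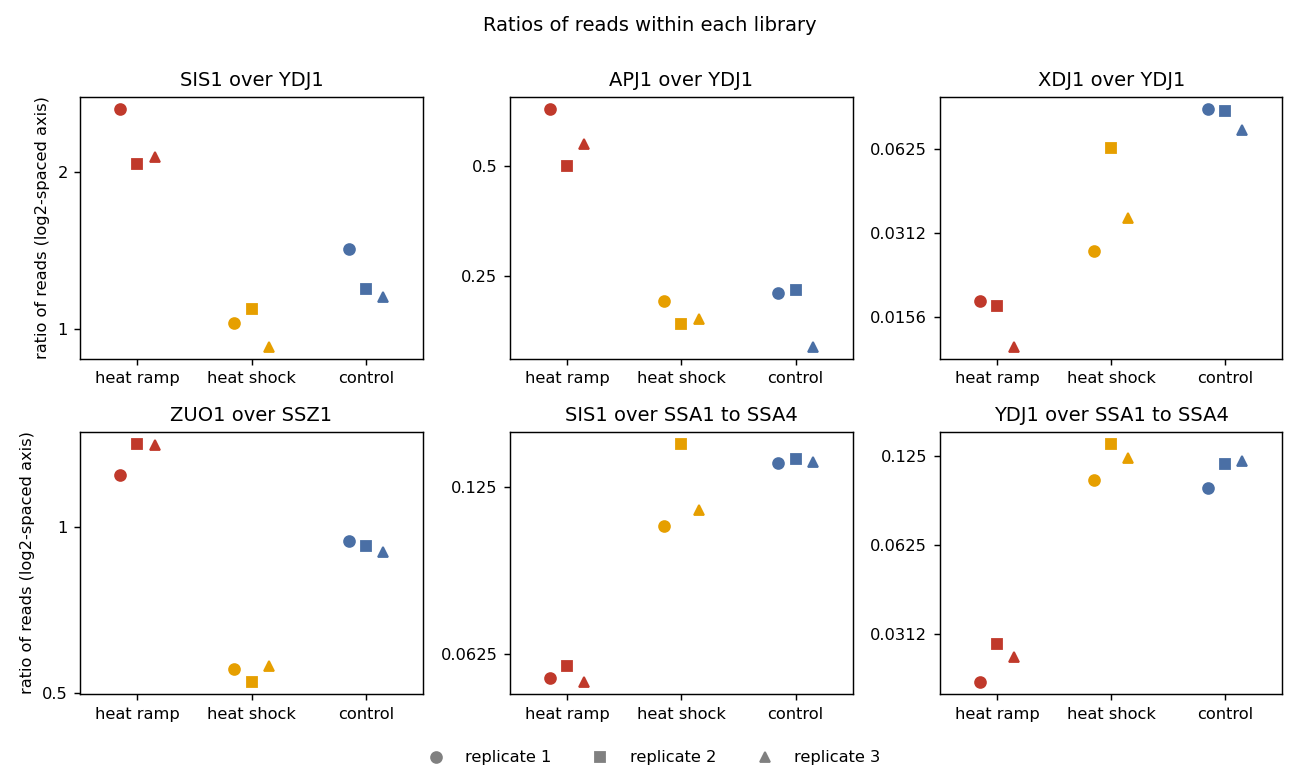
Ratios of reads within each library on log2-spaced y axes, with a panel per ratio, groups along the x axis and a symbol per replicate. Heat ramp libraries do not overlap with the other groups in any of the 6 panels, and SIS1 over YDJ1, XDJ1 over YDJ1 and ZUO1 over SSZ1 separate all 3 groups. The share of other gene pairs that separate in this way was not computed. Of all features, 78.5% were called in heat ramp against control and 72.0% in heat ramp against heat shock.

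Among the Hsp70s of the cytosol and their nucleotide exchange factors, the heat ramp left 7 of 11 genes higher and 4 lower, with a median log2 fold change of 1.99 against −0.01 over all features, of which 39.0% were higher and 39.5% lower. The largest rises were those of SSA1 (4.41) and SSA2 (4.13), whose single values are uncertain because the copies are near-identical, and the largest falls those of SSB1 (−2.29) and SSB2 (−1.77), the ribosome-bound Hsp70s, which are also near-identical copies. SSZ1 was 2.83-fold lower (limma adjusted p = 4.37e-08). After the heat shock 2 were higher, SSZ1 (0.69, adjusted p = 0.000257) and SSB2 (0.42, adjusted p = 0.0391, lost in 4 of the 9 fits without 1 library and under total count scaling, where it was 0.25), and 2 were lower, SSA3 (−1.12) and SSE2 (−0.85), with a median of 0.25, where 29.9% of all features were higher and 27.7% lower. SSB2 was also not called with edgeR (0.40, adjusted p = 0.0507). The number of the 11 genes called higher was 6 without heat shock replicate 2 and 5 with DESeq2. In those fits 3531 and 4090 features were called in either direction, against 3945 in the main fit. The share called higher in them was not computed. SSB1 had a log2 fold change of 0.25 (adjusted p = 0.230).

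Of the 12 other J-domain genes, which act in mitochondria, the endoplasmic reticulum, the spliceosome and elsewhere, the heat ramp left 2 higher and 6 lower, with a median of −0.34, where 39.0% of all features were higher and 39.5% lower. Under total count scaling 1 was higher and 10 were lower, where 1326 of 6847 features were higher and 4384 lower. The higher ones were MDJ1 (2.65, adjusted p = 4.41e-06) and HLJ1 (0.97, adjusted p = 3.40e-06), which encodes a protein of the endoplasmic reticulum membrane, although HLJ1 was not called under total count scaling (0.06, adjusted p = 0.663). The lowest were PAM18 (−1.76), which encodes the J-domain subunit of the mitochondrial import motor, and JJJ2 (−1.22). After the heat shock 3 were higher, led by HLJ1 (0.65) and SEC63 (0.55), a subunit of the translocation channel of the endoplasmic reticulum, and 4 were lower, led by JID1 (−1.03) and JJJ2 (−0.70), with a median of 0.12, against 29.9% and 27.7% of all features.

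Genes of the pathways that the specialised members serve were not all called in the same direction as the member. All 6 other diphthamide genes were lower after the heat ramp (median −1.14, against −0.01 over all features, of which 39.5% were lower), led by DPH1 (−1.85) and DPH5 (−1.47), where JJJ3 was not called. After the heat shock, when JJJ3 was higher, KTI11 (0.56, adjusted p = 0.00264) and RRT2 (0.40, adjusted p = 0.0281) were higher and DPH6 lower (−0.35, adjusted p = 0.0344). Over all features 29.9% were higher and 27.7% lower, so these few calls do not set the diphthamide genes apart. The limma calls of RRT2 and DPH6 were lost in 3 and 5 of the 9 fits without 1 library, and that of RRT2 under total count scaling (0.23). The late export factors of the large ribosomal subunit, with which Jjj1 acts, were all lower after the heat ramp, again against 39.5% of all features, led by REI1 (−3.44) and ARX1 (−3.15). Of these 3 genes, ARX1 was higher after the heat shock, against 29.9% of all features (0.44, limma adjusted p = 0.0261). That call was lost in 3 of the 9 fits and, at 0.27, under total count scaling. Of the 2 clathrin genes, CHC1, the heavy chain, was higher after the heat ramp (1.75, limma adjusted p = 1.31e-08), against 39.0% of all features. It was not called after the heat shock (−0.27, limma adjusted p = 0.0698). CLC1, the light chain, was not called after the heat ramp (−0.20, limma adjusted p = 0.252). After the heat shock CLC1 was lower (−1.09, limma adjusted p = 6.09e-05), against 27.7% of all features. SWA2 was lower after both treatments.

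For each member, the protein-coding genes with the most similar profile were sought among 5928 candidates, by the root mean square difference of log2(normalized count + 1) over the 9 libraries after centring on each gene's mean. This is a description over libraries that share group and depth. Nearest to YDJ1 were SSE1, an Hsp110 exchange factor (0.14), and YKE4 (0.15). HCH1, a cochaperone of Hsp90, was nearest to SIS1 (0.17), followed by the uncharacterised YDL129W (0.23). For APJ1 they were MBF1, a transcriptional coactivator (0.11), and HSC82, which encodes Hsp90 (0.18). The members with small changes had closer neighbours, such as STP1 (0.05) and LAM6 (0.06) for SWA2, PIK1 (0.06) and RFC3 (0.08) for XDJ1, PSY4 (0.06) and TFC7 (0.08) for CAJ1, and SPT15 and YBR259W (both 0.08) for ZUO1. JJJ1 was closest to YNL050C and MDM38 (both 0.13), JJJ3 to PSA1 (0.16) and STE14 (0.17), and DJP1 to EUC1 and SPN1 (both 0.18).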

How the data were processed

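Single-end reads of poly(A)+ RNA had been trimmed (Trimmomatic), aligned to SacCer3 (Bowtie2), counted per feature and normalized (DESeq2) by the authors. The counting tool and any use of strand are not given in the sources used here. For RNA integrity the paper states only an upper bound for all samples. The part of integrity in differences between groups was not tested. The deposited values are normalized counts, a signal per feature and library. In every library 100% of them were whole multiples of 1 read (within 0.01 reads), so reads were recovered. Tables of the authors' own comparisons (fold changes and p-values) were not used. Log2(normalized count + 1) of 6847 features with a mean of at least 10 was fitted with limma 3.58.1 (R 4.3.3, trended prior, group as the only factor, 9 libraries), two-sided, with Benjamini-Hochberg adjustment over all features. The procedure was tested on simulated data in which only a small part of the features changed. That test does not cover data such as these, where most features were called. Errors are SDs over 3 libraries, or limma standard errors. The members and lists were chosen with earlier results of these data known. Named genes are the members, the 2 highest and 2 lowest called genes of each list in each comparison with the control, SSZ1, SSB1 and SSB2, and the 2 nearest profiles of each member. Strain markers are named as well. Replicate numbers pair the samples, since the study states that each culture gave 1 sample to each group. Deviations of paired samples from their group means correlated between −0.20 and 0.29. Alternatives were pseudocounts of 0.1 and 5, no filter, TMM and total count scaling, fits of 2 groups, a replicate block, an untrended prior, edgeR 4.0.16, DESeq2 1.42.0, a fold condition and each library left out. Positions come from the R64 annotation, which matched 6048 of 7126 identifiers and lists no gene that overlaps a member. The other identifiers could not be placed, among them YNL226W and YNL228W, whose names put them next to JJJ1, so that an overlap with a member was not tested.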

Additional observations from a re-analysis of the deposited data

How the results depend on the processing

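Of the 30 log2 fold changes (10 genes in 3 comparisons), none changed its call under the pseudocounts of 0.1 and 5, without a filter, in a fit of the 2 groups compared or with an untrended prior. With the replicate block, 3 members were higher and 5 lower in heat ramp against control, 1 higher and 4 lower in heat shock against control, and 4 higher and 3 lower in heat ramp against heat shock, and no call of a member changed. In these comparisons the block fit called 5364, 3952 and 4917 of 6847 features in either direction. The count tests on recovered reads called 5383, 3991 and 4937 features in the 3 comparisons with edgeR and 5388, 4090 and 4930 with DESeq2, against 5375, 3945 and 4929 with limma. The number of members higher after the heat shock was 2 with edgeR and 3 with DESeq2, and it ranged from 1 to 4 when each library was left out. The share of all features called higher in those fits was not computed. With a log2 fold change of at least 1 required, 2 members were lower after the heat ramp and 1 in the heat shock group. Total count scaling gave 6 members lower in heat ramp against heat shock, where 4096 of 6847 features were lower. Signs turned only for values near 0 or under total count scaling. In heat shock against control these were SIS1 (−0.0057 without heat shock replicate 1, in a range up to 0.52 over the libraries left out) and JJJ1 (0.0034 without heat shock replicate 2, in a range down to −0.28). In heat ramp against heat shock, CAJ1 was at −0.093 and SWA2 at −0.71 under total count scaling. SWA2 was also at −0.0104 with TMM scaling and −0.0129 with edgeR, and ranged from −0.040 (without heat shock replicate 2) to 0.089 when libraries were left out, with −0.00705 without heat ramp replicate 2. XDJ1 was at 0.032 with DESeq2, and ranged from −0.18 (without heat ramp replicate 2) to 0.16 (without heat ramp replicate 3) when libraries were left out. Apart from the scaling, the cause of these differences was not tested.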
